A study of Homo sapiens with 4 samples.

Results

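The genes described here are 37 genes of glycolysis and of the cellular response to low oxygen, taken by symbol from tables of 54628 genes. All 37 were found in the tables, 36 passed the low-count filter and SLC2A3 did not. RNA came from Panc1, an established human cell line derived from a pancreatic ductal carcinoma, and was sequenced after poly(A) selection. By the labels, 2 libraries come from cells given HMGB2 siRNA, a small interfering RNA meant to lower HMGB2 (a DNA-bending protein with HMG boxes), and 2 from cells given scramble siRNA. All 4 libraries share the cell line, and the siRNA sequences, the time after transfection, the medium and the oxygen level are not given in the sources used here. The library numbers within a group are not said to mark separate cultures, so p-values cover only the spread among these 4 libraries, possibly a technical one.

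In glycolysis, glucose enters the cell through facilitative transporters, is phosphorylated and split, and is oxidised to pyruvate, which is reduced to lactate or passed to the mitochondria. Hypoxia-inducible factor (HIF) is a pair of an oxygen-labile alpha subunit, HIF1A or EPAS1 (HIF-2 alpha), and the constitutive partner ARNT. With oxygen present, prolyl hydroxylases of the EGLN family mark the alpha subunit for destruction by the VHL ubiquitin ligase, and with little oxygen the dimer raises transcription of most glycolytic genes, of VEGFA and of other targets. This control acts on the HIF protein, which was not measured. Pancreatic ductal carcinomas are known for poor blood supply and high glucose use.

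HMGB2 went against the labels. Its exons (chromosome 4, 173331376 to 173334358) held 4021 and 2746 reads under the label HMGB2 siRNA, against 346 and 319 reads under the label scramble, a log2 fold change of 3.07 ± 0.08 (SE). The header of the count column also names the other treatment in each of the 4 tables. Groups are called below as the labels have them, and each change is given for the libraries labelled HMGB2 siRNA, also called HMGB2-high because they held more HMGB2, over the libraries labelled scramble, also called HMGB2-low. Total gene counts were 31852391 and 20976561 for HMGB2 siRNA, against 21874647 and 20340695 for scramble. KRT8, KRT18, KRT19 and VIM were abundant in every library, while KRT7 was scarce. The endocrine markers INS and GCG and the fibroblast marker DCN had 0 counts in all 4 libraries, and the leukocyte marker PTPRC had at most 1. Other genes of the fibroblast and leukocyte lists were detected: COL1A1 had 60.4 and 60.5 CPM (reads relative to TMM-adjusted library totals) in the libraries labelled HMGB2 siRNA, against 76.7 and 55.2 CPM in those labelled scramble, CD68 had 104 and 109 CPM against 121 and 98.7 CPM, and ACTA2 had 15 and 7 counts against 7 and 14 counts. CDKN2A, which is deleted in Panc1, also had 0 counts in each, where a count of 0 allows up to 0.0942 to 0.147 CPM (this limit is 3 counts of the total and covers counting error only). As in any bulk RNA measurement, a lower value can mean fewer cells with a transcript or less of it per cell, and these cannot be told apart.

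HIF binds DNA at the core words ACGTG and GCGTG, and the promoters of the listed genes were searched for them. RefSeq promoters (GRCh38.p14, 250 bases before to 50 bases after a start of transcription) were present for 33 of the 37 genes, 56 promoters in all. On either strand, ACGTG stood in 23 of these promoters (41.1%), against 21.4% of 35116 promoters of the same length. With GCGTG counted too, the shares were 66.1% and 48.4%. The palindrome CACGTG, which holds ACGTG on both strands and is also the E-box word bound by MYC and by BHLHE40 itself, stood in 8 of the 56 promoters (14.3%), each of a different gene, against 7.26% of all promoters. Windows of 30 bases are shown for the 6 of those genes that passed the test described below, the 3 higher ones (GAPDH, LDHA, BNIP3) before the 3 lower ones (ALDOC, PFKFB3, BHLHE40), because the same word stands in both. Each reads 5′ to 3′ on the strand of the gene, with the palindrome in capitals and other matches left in lower case.
GAPDH, chr12:6535171-6535200, plus strand: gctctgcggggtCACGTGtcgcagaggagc
LDHA, chr11:18394366-18394395, plus strand: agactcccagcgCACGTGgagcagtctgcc
BNIP3, chr10:131982040-131982069, minus strand: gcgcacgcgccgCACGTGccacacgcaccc
ALDOC, chr17:28577116-28577145, minus strand: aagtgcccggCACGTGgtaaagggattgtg
PFKFB3, chr10:6202812-6202841, plus strand: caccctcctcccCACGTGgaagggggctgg
BHLHE40, chr3:4979187-4979216, plus strand: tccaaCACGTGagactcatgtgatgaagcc
The words lie 81, 185, 134, 240, 108 and 245 bases upstream of the start, in that order. Of the genes that had a promoter in the table, ACGTG was found for 7 of 9 called higher, 4 of 8 called lower and 8 of 16 not called, counting a gene once if any of its promoters held the word. By the same count the share over all genes was 24.9%. A gene with more promoters has more chances to hold the word, and promoter number was not matched between these sets of genes. Their shares therefore cannot be compared directly. For PFKM, the same site (chr12:48105347-48105376) lay in overlapping promoters of the gene. A match is a description of the letters and says nothing of binding in these cells.

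Of the 36 genes tested, 11 were higher and 8 lower in the HMGB2-high libraries (labelled HMGB2 siRNA), and 17 did not pass (adjusted p under 0.05 in edgeR's quasi-likelihood test, Benjamini-Hochberg over all 15161 genes tested). These are 30.6% and 22.2% of the tested genes of the list, where 16.7% of all tested genes were called higher and 14.1% lower. With upper-quartile and total-count scaling the split of the list was 7 higher and 10 lower, and 6 higher and 9 lower, and that of all tested genes 2035 and 2809, and 2015 and 2641, in place of 2536 and 2135. Genes with many reads are called more often. Among genes with a mean of at least 10 CPM, a limit set after the data were seen, 11 and 7 of 32 listed genes were called, 34.4% and 21.9%, against 23.4% and 16.3% of 9435 such genes. The list did not move as a block, since its median log2 fold change was 0.03 and that of all tested genes was -0.01. Median sizes without regard to sign were 0.20 for the list and 0.21 for all tested genes, and 6 of the listed genes differed by more than 1.5-fold, 16.7% against 13.6% of all tested genes. Both directions were found within glycolysis: of 17 enzymes from hexokinase to lactate dehydrogenase, 7 were higher and 2 lower. The summed level of these 17 enzymes was 1.31% and 1.31% of all length-scaled transcripts (TPM, counts per exonic length) in the libraries labelled HMGB2 siRNA, against 1.20% and 1.10% in those labelled scramble. Most of this sum came from GAPDH, ENO1 and PKM, with 0.908% and 0.915% against 0.817% and 0.729%.

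**Figure D1:**
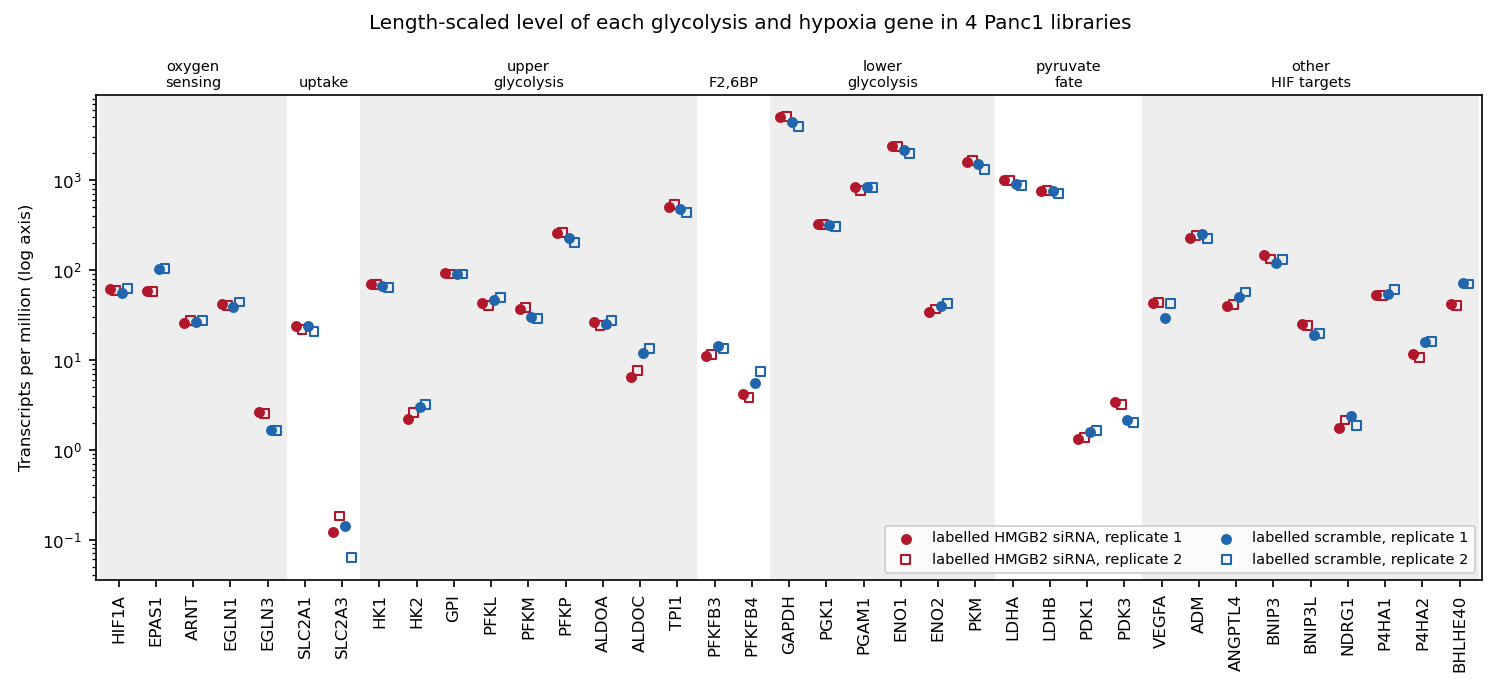
Levels of the 37 genes in TPM (log axis) in the 4 libraries, red for the libraries labelled HMGB2 siRNA and blue for those labelled scramble, grouped by role (F2,6BP marks enzymes of fructose-2,6-bisphosphate). GAPDH stands highest, at 5060 and 5090 TPM against 4470 and 3970 TPM, and SLC2A3 lowest.

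**Figure D2:**
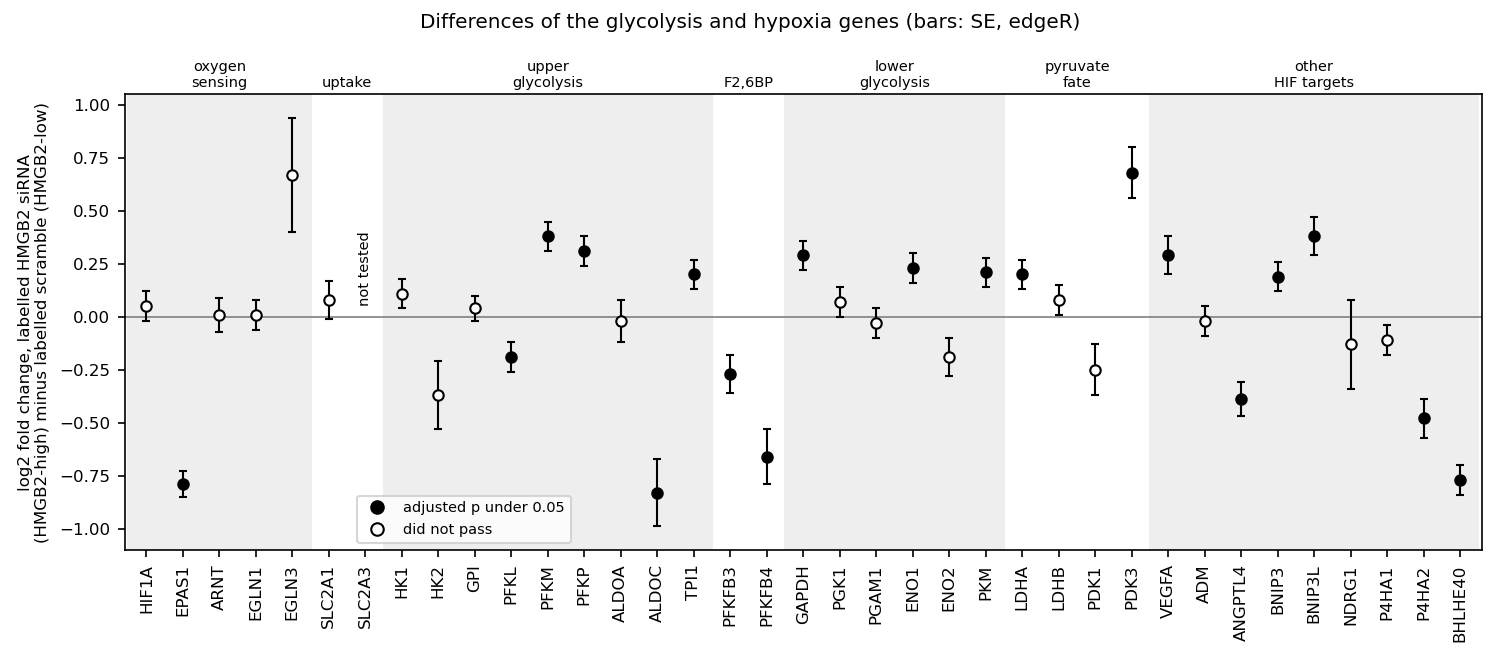
Log2 fold changes of the libraries labelled HMGB2 siRNA over those labelled scramble, with SE bars and filled points for genes that passed the test. EPAS1, ALDOC and BHLHE40 lie lowest (-0.79, -0.83 and -0.77), and PDK3 is the highest of those that passed (0.68).

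Among the genes of oxygen sensing, EPAS1 was the one that passed the test, while its counterpart HIF1A did not. EPAS1 (chromosome 2, 46297407 to 46386697) had 132 and 132 CPM in the libraries labelled HMGB2 siRNA, against 233 and 224 CPM in those labelled scramble. Both HMGB2-high libraries lay far below both HMGB2-low libraries, a log2 fold change of -0.79 ± 0.06 (SE; edgeR adjusted p = 2.77e-14). HIF1A (chromosome 14, 61695513 to 61748258) had 105 and 105 CPM against 97.4 and 105 CPM, with overlapping groups, and its log2 fold change of 0.05 had an approximate 95% interval of -0.09 to 0.18. Per exonic length EPAS1 made up 49.2% ± 0.034 of the alpha subunit transcripts in the HMGB2-high libraries, against 63.4% ± 1.9 in the HMGB2-low ones (SD, n = 2 each). ARNT did not pass, with 52.8 and 57.4 CPM against 54.4 and 54.5 CPM. EGLN1, the main HIF prolyl hydroxylase, had 74.9 and 73.6 CPM against 70.7 and 77.2 CPM and did not pass either. The intervals of the log2 differences were -0.13 to 0.16 for ARNT and -0.13 to 0.15 for EGLN1. EGLN3, a hydroxylase that is itself induced by hypoxia, was scarce, with 2.93 and 2.88 CPM against 1.86 and 1.78 CPM. Its groups did not overlap, but the log2 fold change of 0.67 ± 0.27 (SE) narrowly missed the threshold (edgeR adjusted p = 0.0504) and passed it without the low-count filter (0.0349) and with a minimum mean of 1 CPM (0.0452). Of HIF1A, 29.1% of the exonic bases also belong to HIF1A-AS2 on the opposite strand, a row with at most 1 count in any library.

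The glucose transporter SLC2A1 (GLUT1; chromosome 1, 42925353 to 42958868) had 33.4 and 30.8 CPM in the HMGB2-high libraries (labelled HMGB2 siRNA), against 33.1 and 27.8 CPM in those labelled scramble. The groups overlapped, and the log2 difference of 0.08 had an interval of -0.10 to 0.26. SLC2A3 (GLUT3), with 6 and 6 counts against 5 and 2 counts, was too scarce to test and made up 0.667% ± 0.23 against 0.453% ± 0.21 of the transcripts of this pair (SD, n = 2 each). Rows named as SLC2A3 pseudogenes held 11 and 6 counts against 6 and 4 counts, at least as many as the gene itself in each library. Hexokinase, which traps glucose in the cell, was almost entirely HK1. HK1 had 159 and 161 CPM against 153 and 142 CPM and did not pass (log2 fold change 0.11 ± 0.07, SE; edgeR adjusted p = 0.215). Leaving out scramble replicate 1 gave HK1 a call as higher (0.17, adjusted p = 0.0237). HK2, the isozyme typical of many tumours, had 5.25 and 6.29 CPM against 7.31 and 7.44 CPM. Its groups did not overlap, but the difference of -0.37 ± 0.16 (log2, SE) did not pass (edgeR adjusted p = 0.0834), except with upper-quartile scaling (-0.42, adjusted p = 0.0459). As a share of both hexokinases HK2 was 3.29% ± 0.38 against 4.50% ± 0.28 (SD, n = 2 each). GPI, which converts glucose 6-phosphate to fructose 6-phosphate, had 423 and 416 CPM against 418 and 398 CPM and did not pass, with an interval of -0.09 to 0.16 on the log2 scale. Of its exonic bases, 20.3% are also listed under GARRE1 on the same strand, so that reads from them may have gone uncounted.

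Of the 3 genes of phosphofructokinase, the committing step of glycolysis, PFKP and PFKM were higher and PFKL lower. The platelet-type gene PFKP (chromosome 10, 3067475 to 3136805), the most abundant, had 442 and 454 CPM in the HMGB2-high libraries (labelled HMGB2 siRNA) and 388 and 333 CPM in those labelled scramble. The muscle-type gene PFKM had 83.3 and 88.2 CPM against 68.9 and 63.1 CPM. In both genes each HMGB2-high library exceeded each HMGB2-low one, and the excess was 24.1% for PFKP (edgeR adjusted p = 0.000268) and 29.7% for PFKM (edgeR adjusted p = 4.43e-05). The liver-type gene PFKL had 70.7 and 67.7 CPM against 78.5 and 79.9 CPM and fell by 12.5% (edgeR adjusted p = 0.0319). Per length, PFKL made up 12.1% ± 0.55 of the family against 16.5% ± 1.6, and PFKP 76.8% ± 0.28 against 73.3% ± 1.8 (SD, n = 2 each). PFKL lost its call with DESeq2 (adjusted p = 0.0775), without the low-count filter (0.118), without HMGB2 siRNA replicate 1 (log2 fold change -0.22, adjusted p = 0.183) and without replicate 2 of that label (-0.16, adjusted p = 0.372). PFKM shares 13.7% of its exonic bases with SENP1 on the opposite strand.

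The bifunctional enzymes PFKFB3 and PFKFB4 set the level of fructose 2,6-bisphosphate, the activator of phosphofructokinase, and both are known HIF targets. Both were lower in the HMGB2-high libraries. PFKFB4 (chromosome 3, 48517684 to 48562383) had 10.2 and 9.45 CPM in the libraries labelled HMGB2 siRNA, against 13.8 and 17.6 CPM in those labelled scramble, and fell by 36.9% (edgeR adjusted p = 4.55e-05). The scramble libraries differed from each other, and the log2 fold change was -0.82 without scramble replicate 1 and -0.48 without scramble replicate 2, called in both cases. PFKFB3 had 24.3 and 26 CPM against 31.8 and 28.9 CPM and fell by 17.3% (edgeR adjusted p = 0.0203). Its call was lost without HMGB2 siRNA replicate 1 (log2 fold change -0.22, adjusted p = 0.316), without replicate 2 of that label (-0.31, adjusted p = 0.0955), without scramble replicate 1 (-0.20, adjusted p = 0.111), with DESeq2 (adjusted p = 0.0864) and without the low-count filter (adjusted p = 0.0582). UCN2 shares 11.2% of the exonic bases of PFKFB4 on the same strand and had at most 15 counts in any library.

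Aldolase splits fructose 1,6-bisphosphate. ALDOC (chromosome 17, 28573115 to 28576963) had 4.64 and 5.46 CPM in the HMGB2-high libraries (labelled HMGB2 siRNA) and 8.49 and 9.31 CPM in those labelled scramble. It fell by 43.7%, the largest fall of the 17 glycolytic enzymes, with a log2 fold change of -0.83 ± 0.16 (SE; edgeR adjusted p = 5.85e-05). ALDOA had 23.3 and 21.4 CPM against 22.1 and 23.4 CPM, and its groups overlapped. The ALDOA counts are uncertain as a level, because 65.1% of its exonic bases are also listed under LOC112694756 on the same strand, so that reads from them may have gone uncounted. TPI1, which interconverts the triose phosphates, had 567 and 608 CPM against 548 and 478 CPM. It was 14.5% higher (edgeR adjusted p = 0.0229), but not without HMGB2 siRNA replicate 1 (log2 fold change 0.25, adjusted p = 0.0874), without replicate 2 of that label (0.15, adjusted p = 0.355) or without scramble replicate 2 (0.10, adjusted p = 0.193). With upper-quartile or total-count scaling TPI1 also missed the threshold (adjusted p = 0.0961 and 0.0764).

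In lower glycolysis the most abundant enzymes were modestly higher in the HMGB2-high libraries. GAPDH (chromosome 12, 6534517 to 6538371), which oxidises glyceraldehyde 3-phosphate and is often used as a reference transcript, had 3600 and 3680 CPM in the libraries labelled HMGB2 siRNA, against 3210 and 2750 CPM in those labelled scramble. The excess was 22.2% (log2 fold change 0.29 ± 0.07, SE; edgeR adjusted p = 0.00156), and it fell to 0.18 on the log2 scale without scramble replicate 2 (adjusted p = 0.0109). ENO1, the ubiquitous enolase, had 3150 and 3150 CPM against 2850 and 2510 CPM and was 17.4% higher (edgeR adjusted p = 0.00943). PKM, pyruvate kinase, had 2500 and 2640 CPM against 2410 and 2030 CPM and was 15.8% higher (edgeR adjusted p = 0.0215). For these 3 genes the groups did not overlap, and scramble replicate 2 was the lowest library. Without it neither ENO1 (log2 fold change 0.15, adjusted p = 0.0526) nor PKM (0.09, adjusted p = 0.25) passed. Without HMGB2 siRNA replicate 1, ENO1 (0.23, adjusted p = 0.122) and PKM (0.25, adjusted p = 0.0865) were also not called, nor were they without replicate 2 of that label (0.24, adjusted p = 0.1 for ENO1; 0.18, adjusted p = 0.258 for PKM). Upper-quartile and total-count scaling gave adjusted p-values of 0.0816 and 0.0584 for PKM. Of the 5 epithelial markers, 3 were called higher (KRT7, KRT8, KRT19), where 16.7% of all tested genes were. KRT18 had overlapping groups, and neither KRT18 nor EPCAM passed (log2 fold change 0.09 each; edgeR adjusted p = 0.373 and 0.594). The mesenchymal marker VIM did not pass either (0.14; edgeR adjusted p = 0.121), although its groups did not overlap and lay on the higher side. Together the 5 epithelial markers held 0.598% and 0.594% of TPM against 0.543% and 0.441%, again lowest in scramble replicate 2. The KRT7 and KRT8 calls were lost with DESeq2, that of KRT7 also without HMGB2 siRNA replicate 1, and that of KRT8 also without scramble replicate 2. The part of these markers in the differences was not tested.

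PGK1, the ATP-forming phosphoglycerate kinase, had 640 and 639 CPM in the HMGB2-high libraries (labelled HMGB2 siRNA), against 633 and 587 CPM in those labelled scramble, and did not pass (interval of the log2 difference -0.06 to 0.20). PGAM1 had 669 and 611 CPM against 672 and 640 CPM, with overlapping groups and an interval of -0.16 to 0.09. ENO2, the neuronal enolase and a HIF target in many cells, had 32.5 and 35.2 CPM against 38.3 and 38.6 CPM. Its log2 difference of -0.19 ± 0.09 (SE) did not pass (edgeR adjusted p = 0.0852) but did with upper-quartile (0.0261) and total-count scaling (0.035). ENO2 took 1.46% ± 0.080 of enolase transcripts against 1.95% ± 0.18 (SD, n = 2 each). Processed pseudogenes of these enzymes hardly drew reads: 64 rows named as GAPDH pseudogenes together held 154 and 89 counts under the label HMGB2 siRNA, against 123 and 87 counts under scramble, at most 0.174% of the GAPDH count. Whether reads shared with a pseudogene were dropped before counting is not given in the sources used here.

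Among the enzymes and kinases that set the fate of pyruvate, LDHA and PDK3 were higher, and LDHB and PDK1 did not pass. LDHA, the lactate dehydrogenase subunit favoured in hypoxia, had 1030 and 1050 CPM in the HMGB2-high libraries (labelled HMGB2 siRNA) and 937 and 871 CPM in those labelled scramble, 14.6% higher (edgeR adjusted p = 0.0186). LDHB had 612 and 625 CPM against 608 and 560 CPM and did not pass (edgeR adjusted p = 0.369), except without scramble replicate 1 (log2 fold change 0.15, adjusted p = 0.0349). LDHA was not called without HMGB2 siRNA replicate 1 (0.21, adjusted p = 0.167) or replicate 2 of that label (0.19, adjusted p = 0.214), nor with upper-quartile (0.0794) or total-count scaling (0.0517). LDHA made up 39.6% ± 0.071 of the pair against 37.7% ± 0.17 by the length column of the tables (SD, n = 2 each). That column counts the exons of LDHA again on an alternative sequence, and with the length on chromosome 11 alone the shares were 56.7% ± 0.073 and 54.8% ± 0.18 (SD, n = 2 each). PDK3 (chromosome X, 24465286 to 24550466), a kinase that inactivates pyruvate dehydrogenase, had 18.3 and 17.3 CPM against 11.7 and 10.6 CPM. This was 59.8% higher, a log2 fold change of 0.68 ± 0.12 (SE; edgeR adjusted p = 8.01e-06), and it was called in all 12 alternatives. PDK1, the kinase best known as a HIF target, had 10.8 and 11.6 CPM against 13.3 and 13.2 CPM and did not pass (edgeR adjusted p = 0.128), although its groups did not overlap. PDK1 held 28.9% ± 1.8 of the transcripts of both kinases per length in the HMGB2-high libraries, against 43.4% ± 1.7 in the HMGB2-low ones (SD, n = 2 each).

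**Figure D3:**
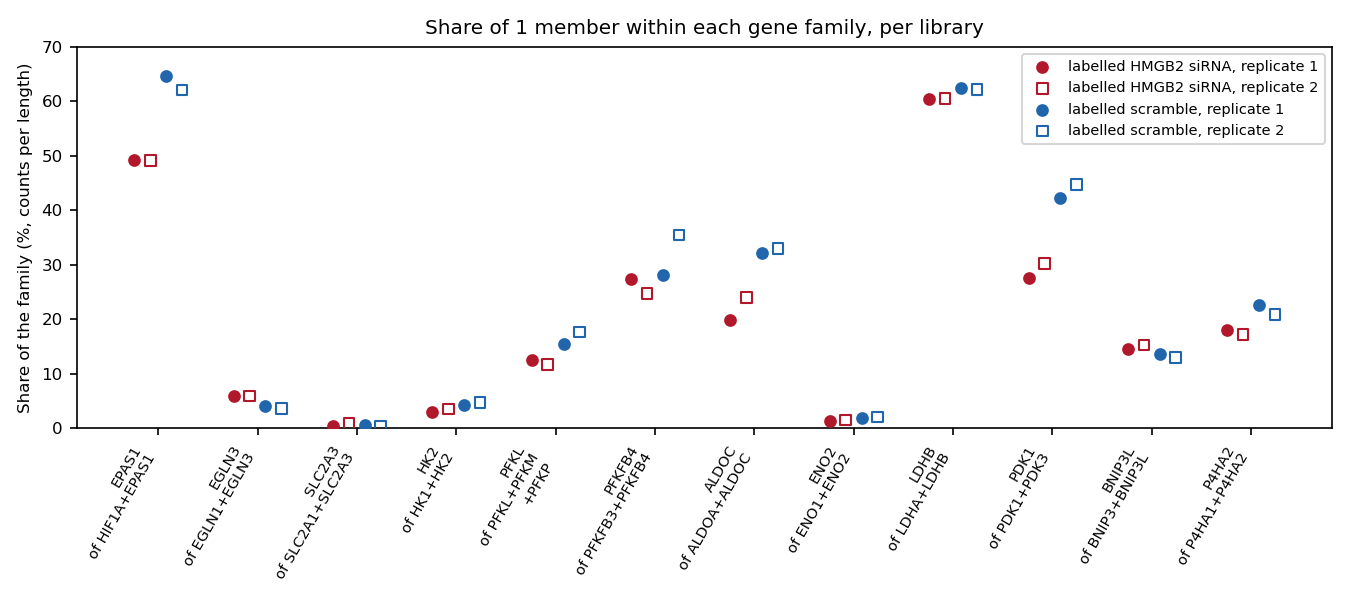
Share of a family's transcripts, in percent of counts per length, held by 1 member in each of the 4 libraries, red for those labelled HMGB2 siRNA and blue for those labelled scramble. PDK1 (28.9% against 43.4%), EPAS1 (49.2% against 63.4%) and ALDOC (21.9% against 32.6%, group means) show the widest gaps, and only SLC2A3 has overlapping groups. The ALDOC share is uncertain as a level, because 65.1% of the exonic bases of ALDOA are also listed under LOC112694756 and reads may have gone uncounted.

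HIF targets outside glycolysis moved in both directions. BHLHE40 (chromosome 3, 4979420 to 4985323), a repressor of transcription and a part of the circadian clock, had 58.9 and 58.2 CPM in the HMGB2-high libraries (labelled HMGB2 siRNA) and 103 and 96.3 CPM in those labelled scramble. It fell by 41.2% (log2 fold change -0.77 ± 0.07, SE; edgeR adjusted p = 1.33e-12). P4HA2, a collagen prolyl hydroxylase, had 24.5 and 23.1 CPM against 33.6 and 33.1 CPM and fell by 28.4% (edgeR adjusted p = 3.69e-05). P4HA1, the other listed gene of a collagen prolyl hydroxylase, had 62.4 and 62.5 CPM against 64.6 and 70.6 CPM and did not pass (edgeR adjusted p = 0.255). ANGPTL4, a secreted inhibitor of lipoprotein lipase, had 31.7 and 33.8 CPM against 41.1 and 44.6 CPM and fell by 23.8% (edgeR adjusted p = 0.000259). Without HMGB2 siRNA replicate 1 ANGPTL4 narrowly missed the threshold (log2 fold change -0.34, adjusted p = 0.051). For BHLHE40, P4HA2 and ANGPTL4, each HMGB2-high library lay below each HMGB2-low library.

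The mitophagy receptors BNIP3 and BNIP3L were both higher in the HMGB2-high libraries (labelled HMGB2 siRNA). BNIP3L had 36.8 and 35.9 CPM against 28.1 and 27.9 CPM in those labelled scramble, 29.8% higher (edgeR adjusted p = 0.000683), and was called in all 12 alternatives. BNIP3 had 94.3 and 85.8 CPM against 76.6 and 81.3 CPM, 14.3% higher (edgeR adjusted p = 0.0316). The BNIP3 call was lost in 6 alternatives, with log2 fold changes of 0.12 (adjusted p = 0.53) without HMGB2 siRNA replicate 1, 0.26 (0.0706) without replicate 2 of that label and 0.16 (0.0619) without scramble replicate 1, and adjusted p-values from 0.0933 with DESeq2 to 0.128 with total-count scaling. BNIP3 shares 16.7% of its exonic bases with PPP2R2D on the opposite strand, and 40 rows named as BNIP3 pseudogenes held 3.92% to 5.97% of its count. VEGFA, the main angiogenic growth factor, had 66.4 and 68.2 CPM against 46.4 and 63.9 CPM and was 22.1% higher (edgeR adjusted p = 0.00806). Its scramble libraries differed widely: without scramble replicate 1 the log2 fold change was 0.08 and was not called (adjusted p = 0.436), and without scramble replicate 2 it was 0.54 (adjusted p = 1.06e-10). VEGFA was also not called without HMGB2 siRNA replicate 2 (0.28, adjusted p = 0.0735), with DESeq2 (adjusted p = 0.389) or with total-count scaling (0.0653). ADM, the vasodilator adrenomedullin, had 139 and 150 CPM against 156 and 135 CPM, and NDRG1, a stress-induced growth regulator, had 3.56 and 4.43 CPM against 4.91 and 3.74 CPM. Neither ADM nor NDRG1 passed, and the groups of both overlapped.

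**Figure D4:**
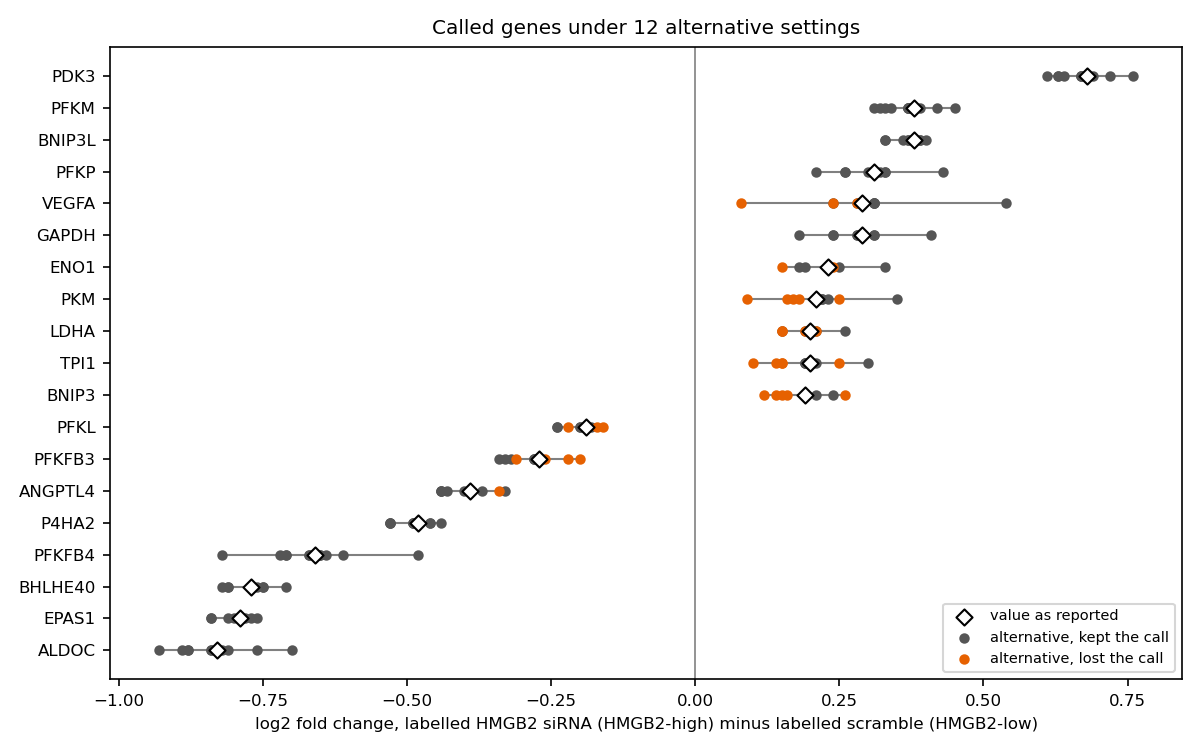
Log2 fold changes of the 19 genes that passed the test (diamonds) and their values under 12 alternative settings (grey where the call was kept, orange where it was lost). EPAS1, BHLHE40, ALDOC, PFKFB4, P4HA2, PDK3, BNIP3L, PFKM, PFKP and GAPDH have no orange point.

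Across all 37 genes, 10 of the 19 calls were kept in each of the 12 alternatives, 5 higher (PFKM, PFKP, GAPDH, PDK3, BNIP3L) and 5 lower (EPAS1, ALDOC, PFKFB4, P4HA2, BHLHE40). The other 9 calls were each lost in at least 1 alternative. Of the 11 genes called higher, 9 had their lowest CPM in scramble replicate 2. A gene called higher tends by construction to be lowest in a scramble library, and the share over all genes called higher was not computed. The 12 families of related genes compared per length had groups that did not overlap in 11 cases, counting a family if the share of any member separated. Among all single genes tested 63.7% had such groups in CPM, which is an unlike measure. No background was computed for shares within other families, so an excess cannot be read from these values. In the pairs of hexokinase, aldolase, enolase, PFKFB enzymes and collagen prolyl hydroxylase, the less abundant isozyme held a lower share in the HMGB2-high libraries. PDK1, less abundant per length than PDK3, also held a lower share. The scarcer BNIP3L and EGLN3 held a higher share, as did PFKM (11.1% against 10.1%), the least abundant phosphofructokinase per length. The order of LDHA and LDHB depended on the length used, and that of HIF1A and EPAS1 on the group. For aldolase, the ALDOA counts are uncertain as a level.

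Further genes of the pathway were taken from lists that did not include the 37. Their counts of calls stand beside 16.7% of all tested genes called higher and 14.1% called lower. Of 7 pentose phosphate pathway genes, which divert glucose 6-phosphate to NADPH and ribose, 4 were higher in the HMGB2-high libraries (labelled HMGB2 siRNA) and 1 lower, with a median log2 fold change of 0.32. The lower call was lost without HMGB2 siRNA replicate 1, and 2 genes were lower without scramble replicate 2 or with upper-quartile or total-count scaling. RPE and TKT, of the non-oxidative branch, were 63.6% and 39.8% higher (edgeR adjusted p = 1.15e-11 and 1.03e-07), and RPE shares 42.8% of its exonic bases with KANSL1L on the opposite strand. Among 5 tested lactate and pyruvate carrier genes 3 were higher and 0 lower. The lactate transporter SLC16A1 (MCT1) had 103 and 103 CPM against 60.1 and 59.2 CPM (72.7% higher; edgeR adjusted p = 3.83e-13), and its chaperone BSG and the mitochondrial carrier subunit MPC2 were 26.2% and 18.2% higher. MPC2 was not called without HMGB2 siRNA replicate 1.

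Of 10 genes of the pyruvate dehydrogenase complex and its control, 3 were higher and 1 lower in the HMGB2-high libraries (labelled HMGB2 siRNA). The shares over all tested genes were 16.7% and 14.1%. PDHX, DLD and PDHB were 52.3%, 27.4% and 22.5% higher, and PDHB was not called without HMGB2 siRNA replicate 2. PDHA1, the catalytic alpha subunit, fell by 11.2% (edgeR adjusted p = 0.0412), a call lost in 6 of the 12 alternatives, among them the replicate block, DESeq2 and the omission of scramble replicate 1 or of either HMGB2 siRNA library. Only 3 of 7 gluconeogenesis genes could be tested, and pyruvate carboxylase (PC) was the one called, 54.3% higher. In the list of further glycolytic isozymes and regulators 13 of 24 were tested, with 1 higher, a call lost without HMGB2 siRNA replicate 1, and 4 lower. SLC2A6, a sugar transporter, had 52.0 and 59.0 CPM against 79.4 and 82.5 CPM in those labelled scramble and fell by 31.7% (edgeR adjusted p = 4.79e-08). PFKFB2 fell by 25.8%. The testis-type GAPDHS fell by 38.8% and was not called without HMGB2 siRNA replicate 1.

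Of 10 tested HIF regulators outside the 37 genes, 2 were higher and 3 lower, where 16.7% and 14.1% of all tested genes were. VHL, the recognition subunit of the ligase that destroys the alpha subunits, had 88.9 and 92.0 CPM in the HMGB2-high libraries (labelled HMGB2 siRNA) and 54.1 and 60.5 CPM in those labelled scramble, 57.7% higher (edgeR adjusted p = 2.9e-10). The coactivator CREBBP was 23.1% higher, and HIF1AN, the asparagine hydroxylase of the alpha subunits, fell by 16.7% but was not called without HMGB2 siRNA replicate 1. Without that library 0 of the regulators were called lower, and without HMGB2 siRNA replicate 2 only 1 was. EGLN2 was not tested, with at most 10 counts in any library and 91.5% of its exonic bases also listed under the read-through gene RAB4B-EGLN2. Of 25 tested genes among 29 further hypoxia-induced ones, 2 were higher and 5 lower, with a median log2 fold change of 0.01. Again the shares over all tested genes were 16.7% and 14.1%, with a median of -0.01. DDIT4, an inhibitor of mTORC1 that other stresses induce too, had 86.3 and 97.7 CPM against 47.0 and 61.1 CPM and was higher by 0.77 on the log2 scale (edgeR adjusted p = 1.36e-10). ERO1A, an oxidase of the endoplasmic reticulum, fell by 22.0% (edgeR adjusted p = 4.11e-05). CA9, a carbonic anhydrase strongly induced by HIF, had 1 and 2 counts against 1 and 1 counts. Without HMGB2 siRNA replicate 1, or without replicate 2 of that label, the hypoxia-induced list had 1 gene higher and 3 lower. With DESeq2 the hypoxia-induced list had 1 gene higher and 4 lower, and with upper-quartile or total-count scaling 1 higher and 7 lower. Leaving out scramble replicate 1 raised its lower count, and leaving out replicate 2 of that label raised its higher count.

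**Figure D5:**
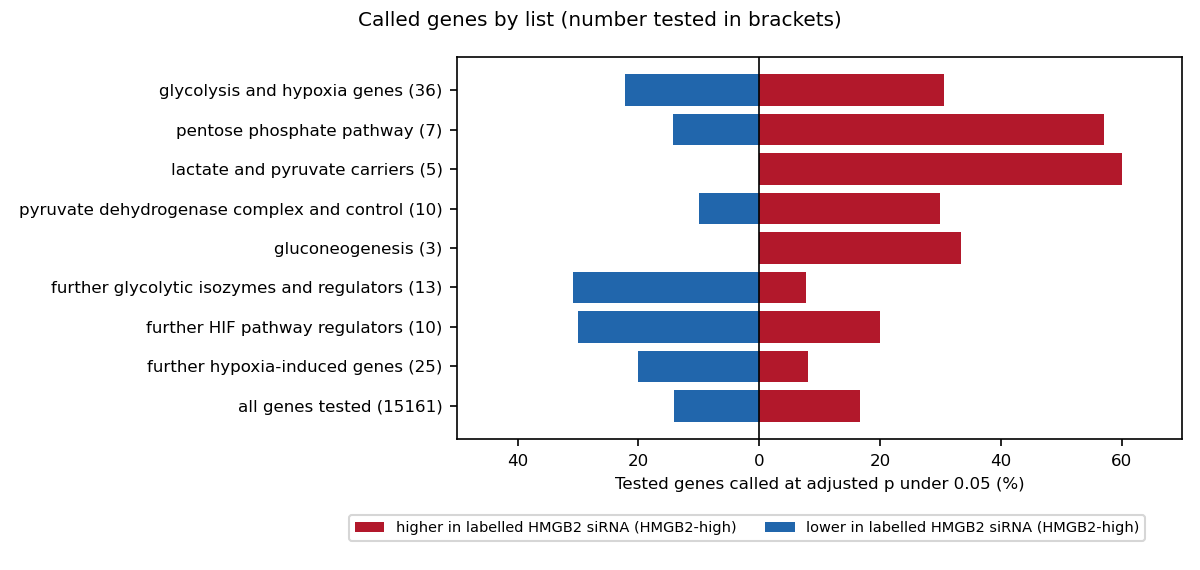
Percent of tested genes of each list called higher (red, to the right) or lower (blue, to the left) in the libraries labelled HMGB2 siRNA, with the number tested in brackets and all 15161 tested genes in the bottom row. The 37-gene list shows 30.6% and 22.2%, against 16.7% and 14.1% of all tested genes.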

How the data were processed

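Panc1 poly(A) RNA was measured in 4 libraries. The deposited values are whole-number read counts per gene, per the file headers, and STAR, SAMtools 1.9, Subread 1.6.3 (featureCounts), DESeq2 and build hg38 (GRCh38) are named in the submitters' processing notes. Settings for strand, multimapping and overlapping genes are not given in the sources used here. No row lacked a gene name (0). Samples were grouped by their treatment label.

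All genes were tested with edgeR 4.0.16 in R 4.3.3 (quasi-likelihood, TMM scaling, filterByExpr with minimum count 10 and total 15), with group as the only term and Benjamini-Hochberg adjustment over 15161 genes. SEs are the log2 fold change over the square root of F. The common biological coefficient of variation was 0.0507. With 2 against 2 libraries a two-sided exact permutation p cannot go below 0.333, so tests rest on spread shared between genes. CPM use TMM-scaled totals, and TPM use exonic length on primary chromosomes. Replicates differed beyond sampling noise (chi-square per degree of freedom 2.93 and 5.23). In simulated counts for this comparison of labels (14928 genes), 30.0%, 69.4%, 74.0% and 96.0% of genes changed 1.25-, 1.5-, 2- and 4-fold were recovered, with 6 false calls. At most 50 tested genes were changed at each fold, whereas 4671 of 15161 genes were called in the data. Spread in the simulation followed the trend shared between genes, with none particular to a gene. These rates and false calls therefore need not hold for the data.

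The 37 genes and the further lists were chosen with earlier results of these data known. Every listed gene is named. Of the further lists, up to 3 called genes with the smallest p are named, apart from some not reported here, and PDHA1, CA9 and EGLN2 were added after their values were seen. Other tools tried were DESeq2 1.42.0 and limma-voom (limma 3.58.1). Other settings were scaling by RLE, upper quartile or total count, leaving the filter off or keeping genes above 1 CPM on average, a block for replicate number, and omitting each library in turn. Lengths on the primary chromosome were added for family shares after seeing the data. Figures used matplotlib 3.10.9.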

Additional observations from a re-analysis of the deposited data

How the results depend on the processing

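Of 432 values of the 36 tested genes under 12 alternatives, 365 kept direction and side of the threshold, 37 lost the call, 7 gained it and 23 changed sign. All sign changes were in genes not called. HIF1A was at -0.00 with upper-quartile and total-count scaling and without scramble replicate 1, ARNT at -0.04, -0.03 and, without HMGB2 siRNA replicate 2, -0.04, EGLN1 at -0.04 and -0.04 with those scalings, -0.00 without HMGB2 siRNA replicate 1 and -0.05 without scramble replicate 1, and GPI at -0.01 and -0.01. SLC2A1 was at -0.04 without scramble replicate 2. ALDOA and ADM were at 0.00 without the low-count filter, ALDOA at 0.04 without HMGB2 siRNA replicate 2 and 0.03 without scramble replicate 2, PGAM1 at 0.04 and 0.01 without HMGB2 siRNA replicate 2 and scramble replicate 1, and ADM and NDRG1 at 0.04 and 0.04 without HMGB2 siRNA replicate 1 and 0.10 and 0.08 without scramble replicate 1 (log2 fold changes). Over the libraries left out, the highest value was 0.11 for HIF1A, 0.07 for EGLN1 and 0.22 for SLC2A1, and the lowest -0.08 for ALDOA, -0.10 for PGAM1, -0.12 for ADM and -0.31 for NDRG1. Upper-quartile and total-count scaling, which moved the median of all genes to -0.057 and -0.053, gave 7 and 6 listed genes higher in place of 11, and a list median of -0.02 with each. That median was 0.06 without the low-count filter and 0.02 to 0.08 over the libraries left out. Leaving out each library gave 5 to 11 listed genes higher and 5 to 8 lower, and 1481 to 2904 of all genes higher and 903 to 2291 lower. Over all 12 alternatives the HMGB2 log2 fold change stayed between 3.02 and 3.11. DESeq2 called 1286 of all genes lower, against 2135. The cause of these differences was not tested. The replicate block gave 11 listed genes higher and 8 lower, and 2446 and 2011 of all genes. It changed no call of a listed gene. The library numbers share no stated pairing, and the deviations of same-numbered libraries correlated at -0.014 across genes. In the further lists the block ended the single lower call of the pyruvate dehydrogenase list. With 2 libraries in each group, small differences that missed the threshold were not resolved.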
